A study of Mus musculus with 6 samples.

Results

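Axon guidance genes of the class 3 semaphorin, Slit and Robo families were followed in fibroblasts sorted from lung tumours. The set holds 10 of the 55298 genes in the deposited files, found by symbol: the secreted semaphorin genes Sema3a to Sema3f, the secreted Slit ligand genes Slit2 and Slit3, and the Roundabout receptor genes Robo1 and Robo2. All 10 had values above 0 in each library. RNA-seq was done on 6 libraries from wild-type C57BL/6 mice more than 8 weeks of age that carried orthotopic lung tumours. In 3 libraries (apCAFs 1, 2 and 3, for antigen-presenting cancer-associated fibroblasts) the sorted cells had MHC class II on their surface, and in 3 (nonapCAFs 4, 5 and 6) they did not. Every cell was gated, per the labels, as large, without CD45, CD31, EPCAM and the mCherry label, and with PDGFRa and a second stromal antigen that the labels write as PDPL. Both populations came from the same pools of tumours, in 3 separate experiments, so no library stands for 1 mouse, and the labels do not say which libraries share an experiment.

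Class 3 semaphorins are secreted proteins that steer axons, endothelial cells and immune cells. They bind neuropilins, which pair with plexins to pass the signal on, and several of them are cut by furin-like proteases. Slit proteins are large secreted ligands that bind Robo receptors and turn away migrating axons and leukocytes; in the lung, both systems are known from the patterning of airways, vessels and nerves. The comparison asks how these genes differ between fibroblasts with and without class II protein.

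Values are the authors' normalized counts, rounded to whole numbers. They summed to between 77960347 and 93330791 per library, which is not the sequencing depth; the depth is unknown. Means are given ± SD (n = 3 in each group). Differences were tested with limma on log2(value + 1) over the 36443 genes above 0 in at least 1 library, with Benjamini-Hochberg adjustment over all of them, and a gene was called at an adjusted p under 0.05. apCAFs 1 and 2 lay close to each other, as did nonapCAFs 4 and 5: their log2 ratios over the 17829 genes whose mean value reached 100 had an SD of 0.238 and 0.246, whereas the other within-group pairs had 0.479 to 0.708. Of the 8 fibroblast marker genes, 7 lay higher in every apCAFs library than in every nonapCAFs library, against 17.1% of all genes tested. The remaining gene, Lum, lay lower without overlap, as did 15.4% of all genes tested. It read 11026, 11304 and 8086 in apCAFs and 21256, 19490 and 15611 in nonapCAFs. The summed value of the 8 was 2803387 to 4232696 in apCAFs and 1194730 to 1430171 in nonapCAFs. A bulk value cannot separate more cells of a kind from more RNA per cell.

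The start regions of 4 of the genes are shown: Slit2, Slit3 and Sema3c, which were called higher in apCAFs, and Sema3e, which was not called. Differences in response between these genes were not tested. RefSeq windows (GRCm38.p6, 250 bases before to 50 after the annotated start) were found for 8 of the 10 genes, in 10 windows. Those printed are chr5:47982905-47983204 for Slit2, chr11:35121206-35121505 for Slit3, chr5:17574566-17574865 for Sema3c and chr5:14025026-14025325 for Sema3e, all on the plus strand. Capitals mark any match, on either strand, to the GC box with the letters GGGCGG, the TATA box of the core promoter with the letters TATAAA, the AP-1 site with the letters TGANTCA, the interferon-gamma-activated site with the letters TTCNNNGAA or the TEAD site with the letters GGAATG.
Slit2: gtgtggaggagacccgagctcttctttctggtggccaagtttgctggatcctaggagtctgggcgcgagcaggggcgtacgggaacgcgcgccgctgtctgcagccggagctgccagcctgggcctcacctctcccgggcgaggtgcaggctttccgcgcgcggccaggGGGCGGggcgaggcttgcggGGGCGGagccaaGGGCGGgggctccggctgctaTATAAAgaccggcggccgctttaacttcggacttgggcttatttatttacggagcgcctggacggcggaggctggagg
Slit3: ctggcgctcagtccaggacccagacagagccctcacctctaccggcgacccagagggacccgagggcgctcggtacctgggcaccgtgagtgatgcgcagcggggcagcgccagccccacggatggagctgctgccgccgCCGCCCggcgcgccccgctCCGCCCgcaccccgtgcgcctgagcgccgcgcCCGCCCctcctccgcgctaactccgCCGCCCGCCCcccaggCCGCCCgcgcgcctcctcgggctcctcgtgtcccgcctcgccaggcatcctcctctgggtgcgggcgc
Sema3c: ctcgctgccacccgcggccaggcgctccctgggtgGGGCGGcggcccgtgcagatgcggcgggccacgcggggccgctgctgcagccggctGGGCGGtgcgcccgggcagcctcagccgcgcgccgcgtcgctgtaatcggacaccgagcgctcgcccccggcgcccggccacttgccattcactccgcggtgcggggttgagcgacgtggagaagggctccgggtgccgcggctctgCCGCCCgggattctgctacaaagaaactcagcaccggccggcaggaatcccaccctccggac
Sema3e: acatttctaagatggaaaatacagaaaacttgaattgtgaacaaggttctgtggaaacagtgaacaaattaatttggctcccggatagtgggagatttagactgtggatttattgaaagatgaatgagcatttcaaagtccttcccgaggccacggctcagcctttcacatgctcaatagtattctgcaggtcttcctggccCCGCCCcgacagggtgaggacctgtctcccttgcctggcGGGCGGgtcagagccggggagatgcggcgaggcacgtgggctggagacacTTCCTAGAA
The GC box occurred 3 times in the Slit2 window, 6 times in Slit3 with overlaps counted, 3 times in Sema3c and 2 times in Sema3e. It occurred in 4 of the 8 genes with a window, and in 35.7% of the 32851 RefSeq windows of the same length. The Slit2 window also held the TATA box, found in 13.6% of all windows. The Sema3e window held the interferon-gamma-activated site, found in 8.3% of all windows. The AP-1 site (7.81% of all windows) matched in 0 of the 8 genes, and the TEAD site (14.7%) only in the window of an upstream Robo2 start. CG dinucleotides numbered 30, 41 and 42 in Slit2, Slit3 and Sema3c and 11 in Sema3e, against a median of 7 over all windows. Sema3d and Robo2, also called higher, had no GC box, with 8 CG dinucleotides in the Sema3d window and 9, 5 and 17 in the 3 Robo2 windows. Sema3a, which was not called, had no GC box and 2 CG dinucleotides. Its RefSeq start lay 271370 bases from the start of the gene in the deposited coordinates. The Robo1 start lay 354843 bases away, and those of the 3 Robo2 windows 1035468, 680945 and 0 bases away. Among the printed windows, the RefSeq start lay 535 bases away for Sema3c, 232 for Slit3, 17 for Slit2 and 0 for Sema3e. The Sema3c window did not include the start of the gene in the deposited coordinates. These matches describe letters and do not mark bound sites.

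In total, 6 of the 10 genes rose in apCAFs by limma and 0 fell, where 3.91% of all genes tested were called higher and 0.486% lower. Among the 17829 genes whose mean value reached 100, which include all 10, 5.87% were called higher. The 6 were Slit2, Slit3, Sema3c, Sema3d, Sema3f and Robo2. With Robo1 and Sema3b, 8 of the 10 lay higher in each apCAFs library than in any nonapCAFs library, against 17.1% of all genes tested. The median log2 fold change of the 10 genes was 1.72, and that of all genes tested was -0.04. The genes were chosen with earlier results of these data known, so the counts describe them and do not test the set.

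**Figure D1:**
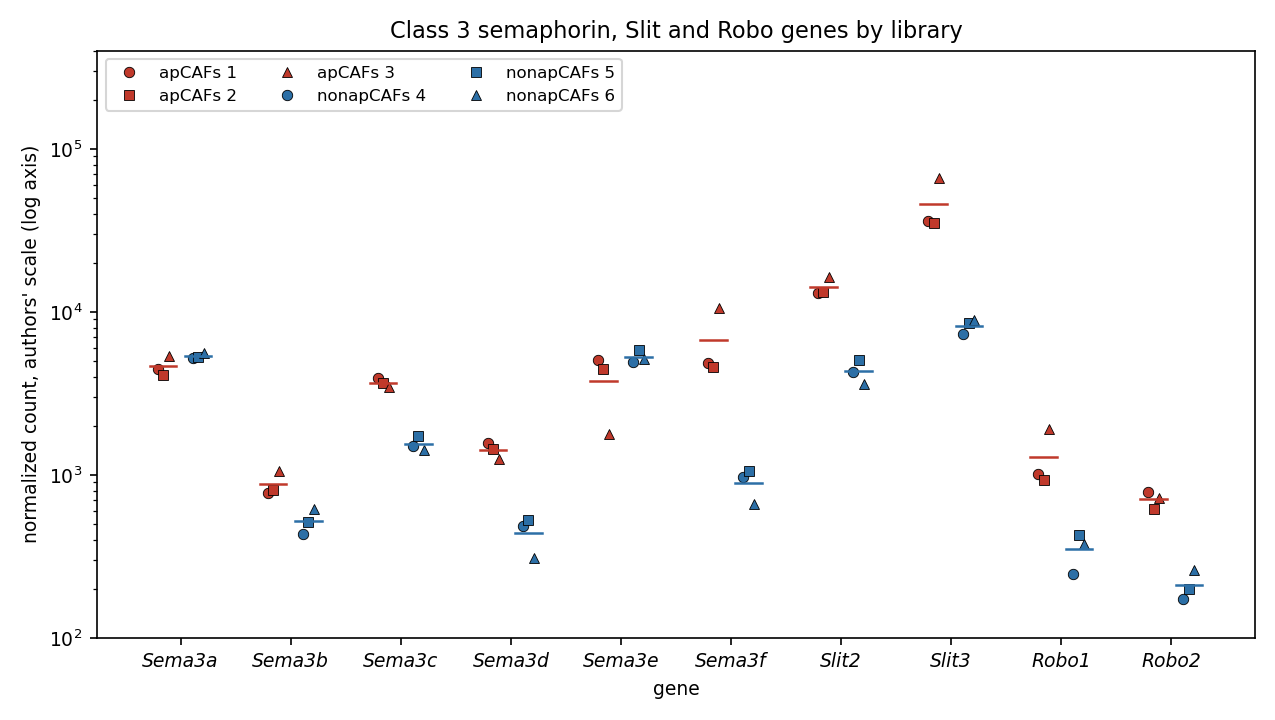
Normalized count of each guidance gene in each library on a log axis, apCAFs in red and nonapCAFs in blue, with a bar at each group's mean. The groups are apart for 8 genes and overlap for Sema3a and Sema3e, and apCAFs 3 is the highest library for Slit3 (66053) and Sema3f (10624) and the lowest for Sema3e (1793).

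Of the 6 semaphorin genes, 3 rose. Sema3f, whose product signals mainly through neuropilin-2 and is known as a repellent of vessels and tumour cells, read 4864, 4576 and 10624 in apCAFs 1, 2 and 3 and 964, 1062 and 665 in nonapCAFs 4, 5 and 6. The lowest apCAFs library lay far above the highest nonapCAFs library, and apCAFs 3 stood at 2.25 times the mean of apCAFs 1 and 2. The means were 6688 ± 3412 and 897.0 ± 207, a 7.02-fold rise on the log2(value + 1) scale (log2 2.81, SE 0.40, limma adjusted p = 0.0283). This was the largest fold change among the 10 genes.

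Sema3c, known for its part in the formation of the cardiac outflow tract and in tumour spread, read 3949, 3659 and 3444 in apCAFs and 1503, 1741 and 1427 in nonapCAFs. The libraries of each group lay close together, with means of 3684 ± 253 and 1557 ± 164 (log2 1.24, SE 0.15, limma adjusted p = 0.0202). Sema3d, which is known to guide endothelial cells and vein development, read 1559, 1449 and 1251 in apCAFs and 483, 527 and 311 in nonapCAFs. The groups did not overlap, and the means of 1420 ± 156 and 440.3 ± 114 gave a 3.29-fold rise (log2 1.72, SE 0.25, limma adjusted p = 0.0296).

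Sema3b, described as a tumour suppressor in lung cancer, read 772, 813 and 1050 in apCAFs and 435, 513 and 617 in nonapCAFs. Each apCAFs library exceeded each nonapCAFs library, but the difference did not pass (log2 0.75, SE 0.21, limma adjusted p = 0.136). Sema3a, the classic growth-cone collapsing factor that acts through neuropilin-1, read 4440, 4087 and 5346 in apCAFs and 5194, 5299 and 5567 in nonapCAFs. The groups overlapped and the difference was small and not called (log2 -0.22, SE 0.16, limma adjusted p = 0.489). Sema3e, which signals through plexin-D1 without a neuropilin, read 5055, 4441 and 1793 in apCAFs and 4921, 5794 and 5153 in nonapCAFs. Its apCAFs 1 and 2 lay near the nonapCAFs libraries, whereas apCAFs 3 stood at 0.378 times their mean (log2 -0.62, SE 0.43, limma adjusted p = 0.471). Without apCAFs 3 the log2 fold change of Sema3e was -0.16.

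Both Slit genes rose. Slit3, named for the Drosophila gene and known from the development of diaphragm and vessels, read 36088, 35063 and 66053 in apCAFs and 7280, 8534 and 8913 in nonapCAFs. Every apCAFs library lay well above the nonapCAFs range, and apCAFs 3 was 1.86 times the mean of apCAFs 1 and 2. Means of 45735 ± 17604 and 8242 ± 855 gave a 5.32-fold rise (log2 2.41, SE 0.29, limma adjusted p = 0.0211). Slit2, a repellent of axons and leukocytes, read 13102, 13247 and 16348 in apCAFs and 4293, 5061 and 3624 in nonapCAFs. The groups did not overlap, and means of 14232 ± 1834 and 4326 ± 719 gave a 3.30-fold rise (log2 1.72, SE 0.19, limma adjusted p = 0.0181). Of the 10 genes, Slit2 had the smallest p.

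The Slit genes each carry a copy of the same microRNA inside the gene, Mir218-1 in Slit2 (chromosome 5) and Mir218-2 in Slit3 (chromosome 11). The mature product is shown because both loci encode it; capitals mark the seed, bases 2 to 8.
mmu-miR-218-5p: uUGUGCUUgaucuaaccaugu
Mature microRNA was not measured by these libraries. The row for the Mir218-2 precursor, whose reads cannot be told apart from unspliced Slit3 RNA, read 6, 5 and 13 in apCAFs and 0, 1 and 4 in nonapCAFs. The Mir218-1 row read 0, 0 and 4 in apCAFs and 0 in all nonapCAFs libraries.

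Of the receptor genes, Robo2 rose. Robo2, a Slit receptor known from the positioning of axon tracts and of the ureteric bud, read 785, 621 and 718 in apCAFs and 174, 198 and 260 in nonapCAFs. The 2 ranges were far apart (708.0 ± 82.5 against 210.7 ± 44.4, log2 1.76, SE 0.21, limma adjusted p = 0.0199). Robo1, the Slit receptor known from lung septation and from endothelial cells, read 1013, 929 and 1899 in apCAFs and 248, 428 and 379 in nonapCAFs. The groups did not overlap, but apCAFs 3 was 1.96 times the mean of apCAFs 1 and 2. Robo1 missed the threshold (log2 1.82, SE 0.37, limma adjusted p = 0.0657), and limma called it in 4 of 21 alternative analyses, among them a test limited to genes whose mean value reached 10 (adjusted p = 0.0356).

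**Figure D2:**
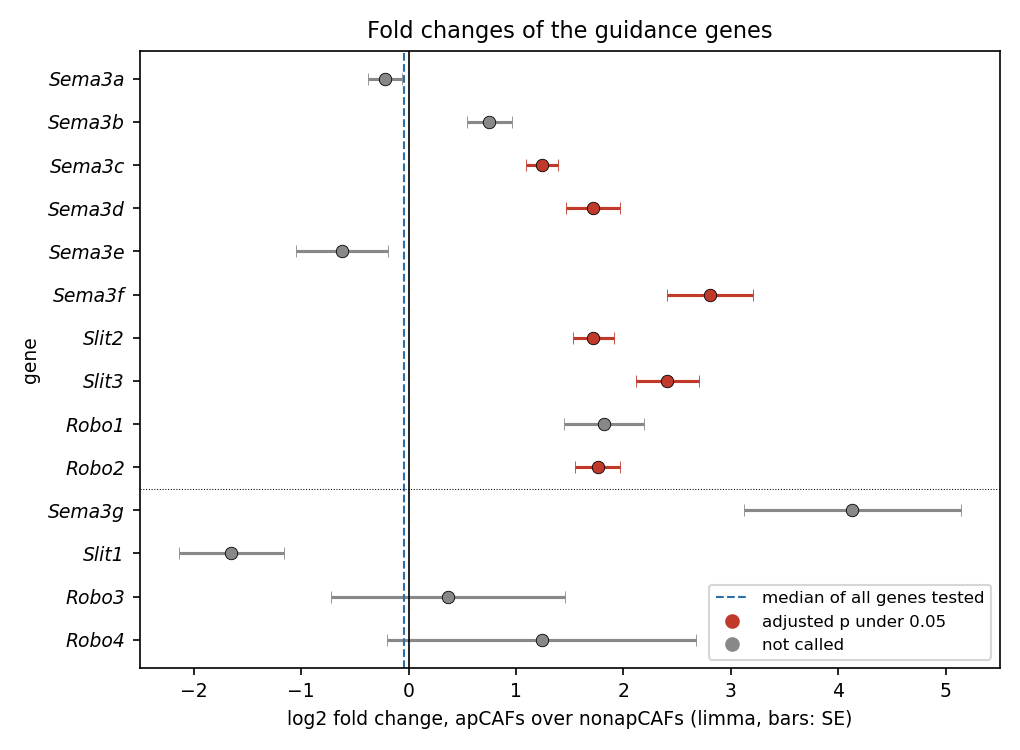
Log2 fold change of apCAFs over nonapCAFs for each guidance gene, with bars for the limma standard error; red points were called and the dashed line is the median of all genes tested (-0.04). The dotted line sets apart the other family genes, of which Sema3g lies at 4.13 with an SE of 1.01 and was not called.

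The authors' deposited table, made with DESeq2, gave the same signs for all 10 genes. There, 8 of the 10 genes in the authors' deposited table had an adjusted p under 0.05, all higher in apCAFs, where 20.6% of the 19255 genes with an adjusted p were called higher. Robo1 (log2 1.86, DESeq2 adjusted p = 1.54e-06) and Sema3b (log2 0.75, DESeq2 adjusted p = 0.00352) passed in the authors' deposited table and not in limma. Sema3a (DESeq2 adjusted p = 0.236) and Sema3e (DESeq2 adjusted p = 0.283) passed in neither.

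The limma calls rested on all libraries being treated as separate replicates. Without apCAFs 3, 5 of the 10 genes were called (Sema3d was lost), and 1791 of all 35948 genes tested. Without nonapCAFs 6, Slit2, Sema3d and Robo2 were called, and 810 of all 35644. Without nonapCAFs 5, Slit2 alone was called, and 499 of all 35799. Without apCAFs 1, apCAFs 2 or nonapCAFs 4, limma called 0 of the 10, with 8 at an unadjusted p under 0.05 in each case. Of all genes tested in these 3 fits, 411 of 35777, 310 of 35924 and 464 of 35863 were called. An unadjusted p under 0.05 was reached by 6749, 6588 and 5275 of them. With an experiment term, under any of the 6 possible pairings, and with the close pairs averaged, limma called 0 of the 10 and 0 of all genes. An unadjusted p under 0.05 was reached by 7 or 8 of the 10. Of all 36443 genes tested, 5316 to 6680 reached it with an experiment term and 4706 with the close pairs averaged. All 10 genes kept their sign in each of the 21 alternatives.

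Because levels of different genes can be compared only per length, values were divided by the merged exon length of each gene in GENCODE M21. In apCAFs, Slit3 had the highest level, 7538 ± 2902 normalized counts per kb. Sema3f followed at 1287 ± 657, Slit2 at 559.6 ± 72.1, Sema3c at 516.0 ± 35.5, Sema3e at 405.3 ± 187 and Sema3a at 333.5 ± 46.8. Sema3b (183.9 ± 31.4) and Sema3d (165.2 ± 18.2) lay below these, and the receptors Robo1 (77.5 ± 32.6) and Robo2 (41.7 ± 4.86) were the lowest. The ranges of neighbours from Slit2 to Sema3a overlapped, as did those of Sema3b and Sema3d.

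In nonapCAFs the order differed below Slit3, which again came first at 1359 ± 141 per kb. Sema3e (569.7 ± 48.7) and Sema3a (386.0 ± 13.9) came next, above Sema3c (218.1 ± 22.9), Sema3f (172.6 ± 39.8) and Slit2 (170.1 ± 28.3). Sema3b (109.2 ± 19.1), Sema3d (51.2 ± 13.3), Robo1 (21.3 ± 5.64) and Robo2 (12.4 ± 2.61) were lower. Sema3c overlapped Sema3f, Sema3f overlapped Slit2, and Robo1 overlapped Robo2. The length used mattered most for Slit2, whose merged exons span 25433 bases and whose longest transcript spans 9960. Per kb of longest transcript Slit2 stood at 1429 ± 184 in apCAFs and 434.3 ± 72.2 in nonapCAFs, where it lay above Sema3c and Sema3f. On that length, Sema3a (902.8 ± 32.4) lay above Sema3e (770.9 ± 65.9) in nonapCAFs without overlap, the reverse of their order by merged exons. In apCAFs Sema3a (779.8 ± 110) then lay above Sema3c (670.9 ± 46.2) and Sema3e (548.5 ± 253), with overlapping ranges. The ranges of Sema3f and Slit2 overlapped there as well.

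**Figure D3:**
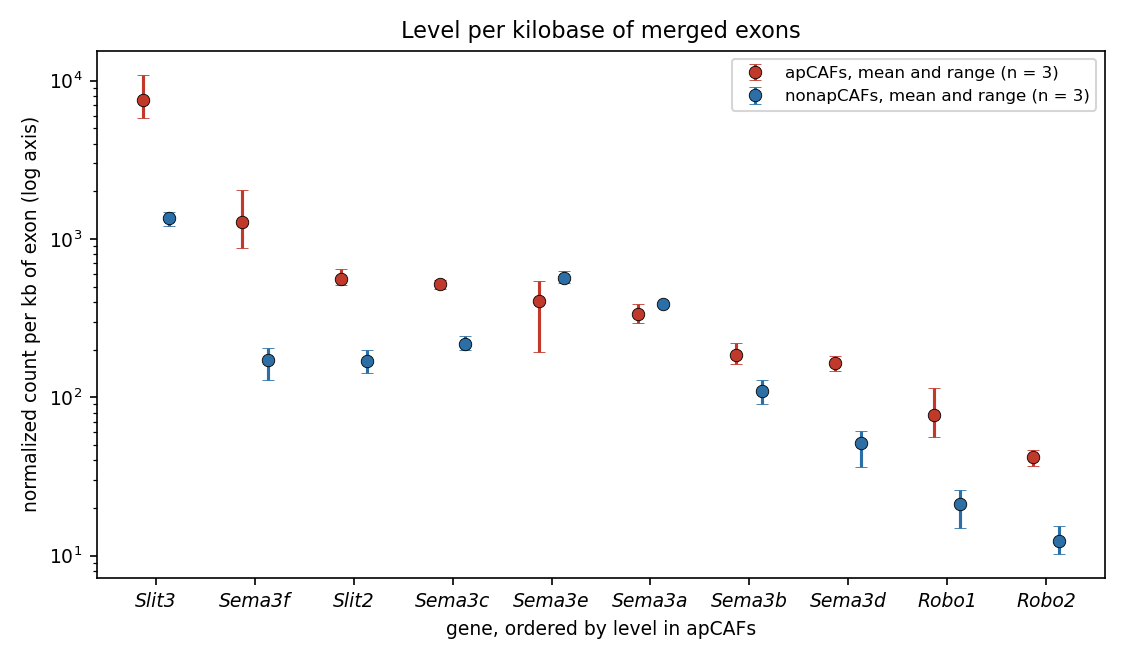
Normalized count per kb of merged exons on a log axis, with points at the mean and bars from the lowest to the highest library of each group. Slit3 is highest in both groups, Robo1 and Robo2 are lowest in both, and Sema3f moves from the fifth place in nonapCAFs (172.6) to the second in apCAFs (1287).

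Ratios of genes within a library do not depend on how libraries were scaled, and 14 such ratios were computed, chosen after the values were seen. With 3 libraries against 3, the exact permutation test (two-sided) cannot go below p = 0.1, so none can pass. The Slit3 to Slit2 ratio of values was 2.75, 2.65 and 4.04 in apCAFs and 1.7, 1.69 and 2.46 in nonapCAFs, without overlap (exact permutation p = 0.1, adjusted 0.233). The Sema3f to Sema3b ratio was 6.3, 5.63 and 10.1 against 2.22, 2.07 and 1.08, and the Sema3c to Sema3a ratio was 0.889, 0.895 and 0.644 against 0.289, 0.329 and 0.256, also without overlap. The Robo1 to Robo2 ratio (1.29, 1.5 and 2.64 against 1.43, 2.16 and 1.46) and the Slit2 to Robo2 ratio (16.7, 21.3 and 22.8 against 24.7, 25.6 and 13.9) overlapped between the groups.

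Pdgfra, the gene for a receptor used in the gate of both populations, itself read 40769, 43116 and 89023 in apCAFs and 17628, 17653 and 21525 in nonapCAFs. Only the 6 genes called higher and Robo1 were divided by it, and for most of these the groups overlapped. Sema3a, Sema3b and Sema3e were left out. The ratio of group means, apCAFs over nonapCAFs, was 3.04 for Pdgfra, above the 0.864, 1.68 and 0.711 of these genes. Slit2 per Pdgfra was 0.321, 0.307 and 0.184 in apCAFs and 0.244, 0.287 and 0.168 in nonapCAFs. The ratios of Sema3c, Sema3d, Robo1 and Robo2 to Pdgfra likewise overlapped between the groups. Slit3 per Pdgfra stayed apart (0.885, 0.813 and 0.742 against 0.413, 0.483 and 0.414), as did Sema3f per Pdgfra (0.119, 0.106 and 0.119 against 0.0547, 0.0602 and 0.0309), each with an exact permutation p of 0.1.

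Markers of other cells moved with the groups; for comparison, 17.1% of all genes tested lay higher and 15.4% lower without overlap. The summed value of 9 mesothelial genes was 40678 to 51808 in apCAFs and 5300 to 5987 in nonapCAFs, and 8 of the 9 lay higher without overlap; Wt1 among them read 5484, 5441 and 14937 against 358 to 561. The summed value of 8 pericyte and smooth muscle genes was 36256 to 39691 against 9381 to 12921, with 7 of 8 higher without overlap. The remaining gene, Rgs5, overlapped with a lower mean in apCAFs, at 13, 24 and 53 against 76, 31 and 227. Of 5 lymphatic endothelial genes, 3 lay higher without overlap (summed value 1274 to 1448 against 74 to 208). Flt4 read 1333, 1223 and 1120 against 143, 196 and 29, Prox1 read 52, 18 and 101 against 0, 3 and 12, and Lyve1 read 61, 37 and 53 against 4, 2 and 19. Mmrn1 was at 0 in apCAFs 2 and 3 and all nonapCAFs libraries, and Reln at 0 in all apCAFs libraries and nonapCAFs 4. The part of these cells in the values of the guidance genes was not tested. The 6 blood endothelial genes overlapped between the groups (793 to 1193 against 1105 to 1287). Of 6 Schwann cell and nerve genes, summed 4361 to 5105 against 3617 to 6395, 1 lay higher and 1 lower without overlap, and the defining gene Sox10 reached at most 9 in any library.

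Transcripts of alveolar type II cells set apCAFs 1 and 2 apart. The summed value of 8 such genes was 92779 and 76552 in apCAFs 1 and 2, 5582 in apCAFs 3 and 5696 to 5945 in nonapCAFs. That of 7 leukocyte genes was 10634 and 10159, then 1425, then 1042 to 1848. Lyz2 made up most of that leukocyte sum in apCAFs 1 and 2 (9898 and 9470). It read 640 in apCAFs 3 and 226 to 1028 in nonapCAFs. Of the 7 leukocyte genes, 2 lay higher and 1 lower without overlap, against 17.1% and 15.4% of all genes tested. Ptprc among them reached at most 65 in any library. The part of these transcripts in the values of the guidance genes was not tested. The 6 alveolar type I genes summed to 5518 to 5801 in apCAFs and 2183 to 3688 in nonapCAFs. Among them 4 lay higher without overlap and 1 lower, against 17.1% and 15.4% of all genes tested. The lower one was Rtkn2, at 622, 655 and 316 against 720, 822 and 1024.

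The genes lie in clusters in the mm10 genome, and neighbours in a cluster differed in whether they were called; those differences between neighbours were not tested. On chromosome 5, Sema3d (12383385 to 12588948), Sema3a (13125414 to 13602565) and Sema3e (14025276 to 14256689) follow each other on the plus strand. Gaps of 536.5 kb and 422.7 kb separate them, with 0 and 1 protein-coding genes in between, yet of the 3 only Sema3d rose. Sema3c (17574281 to 17730268) and Slit2 (47983138 to 48307733) lie further along the same chromosome. In the interval from Sema3e to Sema3c, 0 of 30 tested genes were called. This is near the shares of all genes tested, 3.91% called higher and 0.486% lower. On chromosome 9, Sema3b (107597674 to 107609229) and Sema3f (107681500 to 107710475) are 72.3 kb apart on the minus strand. The abundant gene between them, Gnai2, which encodes an inhibitory G protein subunit, had mean values of 39100 and 44300 (log2 -0.18, limma adjusted p = 0.518). The others were faint and not called: Slc38a3 had means of 29.7 and 3.0 (log2 3.18, SE 0.92, limma adjusted p = 0.15), and Gnat1 had 4.33 and 5.33 (limma adjusted p = 0.577). On chromosome 16, Robo1 (72308306 to 73046095, plus strand) and Robo2 (73891839 to 74411825, minus strand) face each other across 845.7 kb with 0 protein-coding genes between them. Slit3 stands alone on chromosome 11 (35121224 to 35708507, plus strand). Exons of the 10 genes overlapped no exon of another gene in GENCODE M21.

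The genes most like the 3 with the largest fold changes were sought among 17828 genes whose mean value reached 100, by the root mean square difference of log2 values centred over the 6 libraries. Nearest to Sema3f were Fndc1 (0.092), Lrrc55 (0.104) and Dnah1 (0.114). Nearest to Slit3 were Dram1 (0.055), Rtn4rl2 (0.068) and Bicc1 (0.068), and nearest to Robo1 were Adora2a (0.056), Trpv4 (0.084) and Zfp709 (0.11). Because they were picked for this likeness, each shared a step between the groups and a highest value in apCAFs 3. Fndc1, for example, read 33946, 30551 and 70319 in apCAFs and 7325, 7877 and 5213 in nonapCAFs.

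The other genes of the same families gave 0 calls in limma, where 3.91% of all genes tested were called higher and 0.486% lower. Of these 4 genes, 2 had an unadjusted p under 0.05, as did 7021 of all 36443 genes tested. Sema3g, a semaphorin known from arterial endothelium, read 497, 526 and 2890 in apCAFs and 50, 19 and 137 in nonapCAFs. The groups were far apart, but apCAFs 3 was 5.65 times the mean of apCAFs 1 and 2 (log2 4.13, SE 1.01, limma adjusted p = 0.0998). Its log2 fold change was 3.30 without apCAFs 3, 3.44 without nonapCAFs 5 and 4.84 without nonapCAFs 6. Sema3g passed when only genes whose mean value reached 100 were tested (limma adjusted p = 0.0364) and with a variance trend (limma adjusted p = 0.0201). It also passed in the authors' deposited table (log2 4.23, DESeq2 adjusted p = 0.000627). Slit1, the Slit gene best known from the brain, was faint and lay lower in every apCAFs library, at 27, 20 and 8 against 58, 39 and 68 (limma adjusted p = 0.154). Robo3 and Robo4, the latter known from endothelial cells, did not exceed 30 in any library.

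Semaphorin receptor and co-receptor genes went both ways. Of 10, 3 were called higher and 1 lower (median log2 fold change 0.08), against 3.91% and 0.486% of all genes tested, and the neuropilin genes were not called although their groups did not overlap. Nrp1 had 6091 ± 328 in apCAFs and 5132 ± 160 in nonapCAFs (limma adjusted p = 0.339). Nrp2, the main neuropilin for Sema3f, had 17712 ± 6981 and 25948 ± 3213 (limma adjusted p = 0.387), with apCAFs 3 the lowest library at 9663. In the authors' deposited table Nrp1 passed (DESeq2 adjusted p = 0.0241) and Nrp2 did not (DESeq2 adjusted p = 0.161). Plxna1 (log2 -0.4, DESeq2 adjusted p = 0.0055) and Plxna3 (log2 -0.42, DESeq2 adjusted p = 0.0012) passed there as lower. Neither was called by limma (adjusted p = 0.232 and 0.191). Of the 10 receptor and co-receptor genes, 4 lay higher and 4 lower without overlap, against 17.1% and 15.4% of all genes tested. Plxna4, a plexin that passes on Sema3a signals, rose from 913.7 ± 113 to 2881 ± 714 (log2 1.64, limma adjusted p = 0.0265).

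The cell adhesion molecules of the L1 family, which can join semaphorin receptor complexes, split. Nrcam rose from 488.0 ± 87.5 to 2368 ± 293 (log2 2.29, limma adjusted p = 0.0134) and Chl1 from 3402 ± 709 to 16374 ± 5656 (log2 2.24, limma adjusted p = 0.0257). L1cam, in contrast, fell by 1.75 on the log2 scale (limma adjusted p = 0.0148); 100 bases of its exons overlap Arhgap4 on the same strand. Plxnd1, the receptor gene for Sema3e, had 10244 ± 783 and 11049 ± 1498 and was not called (limma adjusted p = 0.723).

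Genes downstream of the receptors were read against the same shares over all genes, 3.91% called higher and 0.486% lower. In the list of 15 semaphorin processing and transduction genes, 2 rose and 0 fell (median log2 fold change 0.49). Dpysl5, of the collapsin response mediator family that relays semaphorin signals to the cytoskeleton, read 893, 715 and 1760 in apCAFs and 15, 41 and 19 in nonapCAFs (log2 5.45, SE 0.51, limma adjusted p = 0.0141). Mical2, an enzyme that oxidizes actin, was 2.43-fold higher (limma adjusted p = 0.0489). It missed the threshold with values divided by library totals (limma adjusted p = 0.0583), quantile-normalized (0.0515), median-centred (0.0758) or centred on the upper quartile (0.0549). Of 15 Slit-Robo partner and effector genes, 1 rose and 0 fell (median 0.03). It was Flrt3, a membrane protein that can bind Robo1, with 340.3 ± 65.7 against 84.0 ± 21.0 (log2 2.02, limma adjusted p = 0.0237). The abundant partners Gpc1, a heparan sulfate proteoglycan that binds Slit, and Dag1, dystroglycan, were not called (limma adjusted p = 0.337 and 0.188). Dag1 passed with a variance trend (limma adjusted p = 0.0445) and in the authors' deposited table (DESeq2 adjusted p = 0.00237). Gpc1 passed in neither (limma adjusted p = 0.178, DESeq2 adjusted p = 0.0855).

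**Figure D4:**
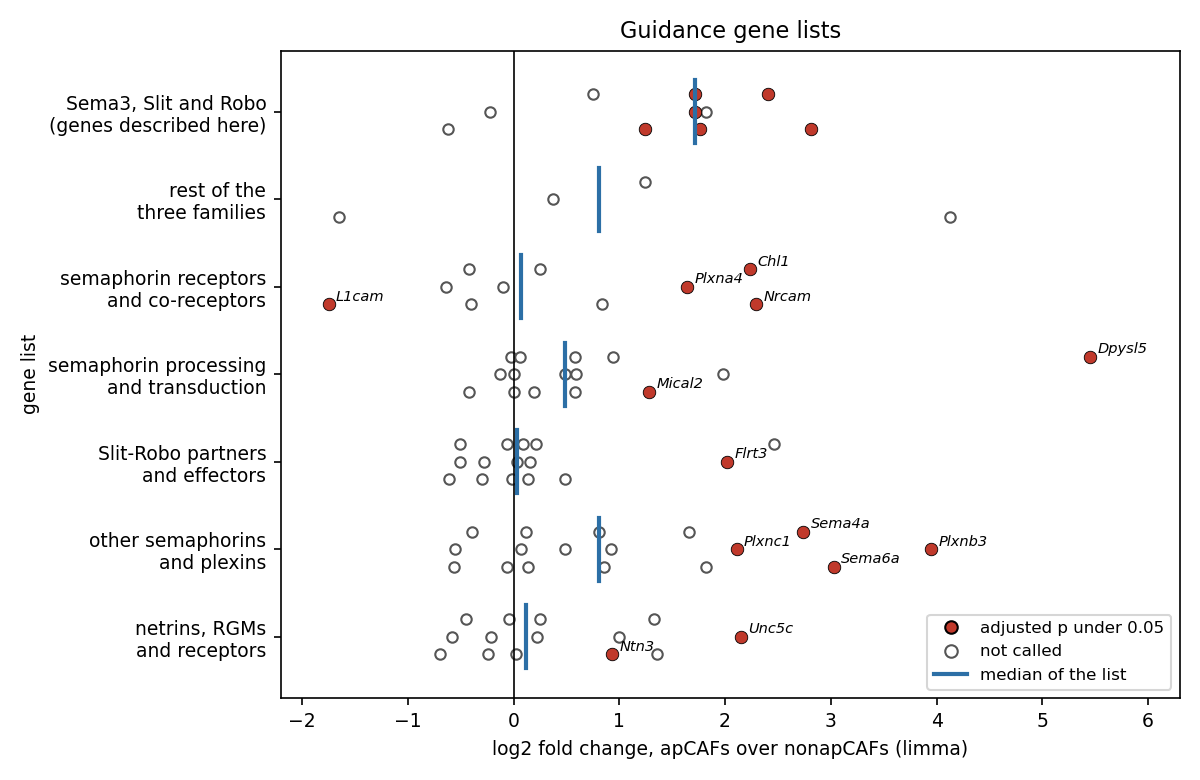
Log2 fold change of apCAFs over nonapCAFs for every tested gene of the guidance lists, filled red where called by limma, with a blue bar at each list's median. The median is 1.72 for the Sema3, Slit and Robo genes described here and lies between 0.03 and 0.81 for the other lists, whose called genes are named.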

How the data were processed

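RNA-seq covered 3 apCAFs and 3 nonapCAFs libraries, prepared per the labels with an NEB Next Ultra kit; strand use in counting is not given in the sources used here. The submitters' processing notes name mm10, Bowtie2, Trim Galore and DESeq2, without versions. Per the file headers, the authors deposited normalized counts, rounded to whole numbers, which are treated here as a score and not as raw counts. Their table also holds, per the file headers, log2 values, a fold change as a ratio, a DESeq2 p-value and adjusted p-value, and a GC percent, which was deposited but not used. Of 55298 gene identifiers, 55117 were found in GENCODE M21, 99.5% with the same coordinates.

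limma 3.58.1 (R 4.3.3) was fitted to log2(value + 1), a pseudocount of 1, with group as the only term; p-values are two-sided. Fold changes of low genes are understated on this scale. The fit was tested on simulated data. Members and gene lists were chosen with earlier results of these data known. Named besides the 10 genes are up to 4 called genes of each list, ranked by p. Where fewer than 2 were called, the 2 genes of highest mean in the list are named. Nrp1, Nrp2, Plxna1, Plxna3, Plxnd1, Gnai2, Slc38a3, Gnat1, Robo3 and Robo4 were named after their values were seen. Alternatives covered pseudocount, filters, scaling, variance trend, left-out libraries, experiment terms and averaged close pairs. Neither depth nor counting intervals could be given.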

Additional observations from a re-analysis of the deposited data

How the results depend on the processing

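No paired analysis was possible because replicates carry the numbers 1 to 3 in one group and 4 to 6 in the other, with no pairing given; an experiment term was therefore tried under each of the 6 possible pairings. It left 0 genes called by limma in each (5316 to 6680 at an unadjusted p under 0.05), and so 0 of the 10 guidance genes and 0 of the other listed guidance genes, against 1602, 6 and 13 without it. Averaging the close pairs also left 0, 0 and 0 (4706 genes at an unadjusted p under 0.05). Both leave fewer degrees of freedom for the error. Leaving out 1 library gave 310 to 1791 genes, 0 to 5 of the 10 and 3 to 12 of the other guidance genes. A pseudocount of 10 gave 2527 genes and restricting the test to a mean value of 10 or more gave 2465. With a mean value of 100 or more, 2748 genes and 25 other guidance genes were called, and with a variance trend 3453 and 28; in both, Robo1 and Sema3b were called as well. The share of called genes that were higher was 89.0%, and 78.9% with quantile-normalized values. The median log2 fold change of all genes moved from -0.04 to -0.18 with library totals, -0.19 with quantiles and -0.25 with median-centring; under the last, Sema3d missed the threshold (adjusted p = 0.0516). No gene named for its test changed sign under any alternative.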

Other observations

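Semaphorins outside class 3 and their plexins were also measured. Of 17 genes, 4 rose in apCAFs and 0 fell by limma (median log2 fold change 0.81), against 3.91% and 0.486% of all genes tested. Sema6a, a membrane semaphorin, read 1078, 937 and 2003 in apCAFs and 149, 169 and 144 in nonapCAFs (log2 3.03, SE 0.32, limma adjusted p = 0.0173). Sema4a, a membrane semaphorin known for its action on T cells, read 658, 634 and 1282 against 117, 147 and 102 (log2 2.74, SE 0.34, limma adjusted p = 0.0212). Plxnc1, the receptor gene for Sema7a, rose from 278.3 ± 46.5 to 1204 ± 151 (limma adjusted p = 0.0141). The fourth, Plxnb3, was faint, at 26, 11 and 33 against 2, 0 and 0 (limma adjusted p = 0.0349).

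Of 14 tested netrin, repulsive guidance molecule and receptor genes, 2 rose and 0 fell by limma (median log2 fold change 0.12), against the same shares of 3.91% and 0.486%. Unc5c, a netrin receptor gene, read 1018, 916 and 960 in apCAFs and 200, 207 and 243 in nonapCAFs, with little spread in either group (log2 2.15, SE 0.15, limma adjusted p = 0.00919). Ntn3 rose from 315.7 ± 31.1 to 600.7 ± 42.4 (limma adjusted p = 0.0371). Ntn3 missed the threshold with values divided by library totals (limma adjusted p = 0.054), quantile-normalized (0.0982) or median-centred (0.0813). With values centred on the upper quartile it passed (limma adjusted p = 0.0421). Of its exons, 139 bases overlap BC028777 on the opposite strand, and its exons also overlap Tbc1d24 on the same strand. The netrin receptor gene Dcc was listed at 0 in all 6 libraries.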
